A study of Mus musculus with 6 samples.

Results

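The neutrophil-attracting CXC chemokines Cxcl1, Cxcl2, Cxcl3 and Cxcl5 were followed in tumor endothelial cells (TECs) with and without the autophagy gene Atg5. They were chosen by gene name as ligands that carry the ELR motif, and all 4 were present among the 750 genes of the deposited table. TECs had been sorted as live CD45-CD31+ cells from subcutaneous B16-F10 tumors, a mouse melanoma line, 18 days after injection of 250000 cells. Their RNA was counted on a NanoString nCounter panel, which counts barcoded probes without amplification. There were 3 samples per group.

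Atg5BECKO samples (replicates 2, 3 and 5) came from Atg5 fl/fl mice with a Pdgfb-CreERT2 driver, which acts in blood endothelial cells once tamoxifen is given. WT samples (replicates 1, 4 and 6) came from Cre-negative littermates. All mice were C57Blk6, of both sexes and 7 to 14 weeks old, and carried the same tumor line. The table has no probe for Atg5, so the deletion could not be checked in these samples. Groups follow the sample titles. In the study's source data, 1 sheet groups the columns as in the titles, whereas another heads replicates 1, 2 and 3 as WT and 4, 5 and 6 as knockout, so every direction given here rests on the titles. The labels do not say whether a sample was 1 mouse or a pool, so the spread between samples may be partly technical, and the p-values measure that spread only.

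ELR-type CXC chemokines are small secreted proteins that bind the receptor CXCR2 and draw neutrophils out of the blood. Endothelium and stroma transcribe them quickly after stimulation by interleukin 1, tumor necrosis factor or bacterial products, largely through the transcription factor NF-κB, and their mRNAs are short-lived. On the vessel wall the chemokines work together with selectins and with adhesion molecules such as ICAM-1, which hold the neutrophil while it responds.

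The 4 genes lie on mouse chromosome 5 in a cluster of 7 chemokine genes that spans 147 kb (RefSeq, build GRCm38.p6), in the order Cxcl5, Ppbp, Pf4, Cxcl3, Cxcl15, Cxcl1 and Cxcl2. Cxcl1 and Cxcl2 are 10.8 kb apart. RefSeq promoter windows, 250 bases before to 50 bases after the start, were at hand for Cxcl1, Cxcl2 and Cxcl3. The 120 bases before each start are shown because all 3 hold the same run of 11 bases, which matches the NF-κB consensus on both strands at overlapping positions. Capitals mark that run, and all 3 sequences are on the plus strand, with coordinates chr5:90891125-90891244 for Cxcl1, chr5:90903779-90903898 for Cxcl2 and chr5:90785981-90786100 for Cxcl3.
Cxcl1: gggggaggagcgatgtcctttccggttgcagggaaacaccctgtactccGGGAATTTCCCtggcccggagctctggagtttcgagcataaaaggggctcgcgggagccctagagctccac
Cxcl2: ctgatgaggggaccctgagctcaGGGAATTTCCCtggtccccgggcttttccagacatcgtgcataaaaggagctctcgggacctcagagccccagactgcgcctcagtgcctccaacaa
Cxcl3: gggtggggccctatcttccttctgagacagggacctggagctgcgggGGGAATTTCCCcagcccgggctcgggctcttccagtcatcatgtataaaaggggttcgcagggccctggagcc

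The run GGGAATTTCCC sat at positions -71 to -61 from the start of Cxcl1, -97 to -87 from that of Cxcl2 and -73 to -63 from that of Cxcl3. Searched on both strands, it occurred in 14 of 32851 RefSeq mouse promoter windows, or 0.0426%. Among 281 tested genes with a window it occurred in 4, on either strand and counted per gene over all its windows. These were the 3 members and Il16, a cytokine named here after its value was seen, with a log2 fold change of -0.05 (SE 0.32). A match to the NF-κB consensus of any sequence, on either strand, occurred in 4.51% of windows. Counted per gene with a window, it occurred in 5.14% of all genes and in 13.17% of the tested genes. The last share is the nearer comparison for an immune panel. The AP-1 motif TGANTCA, searched on both strands, was found in none of the 3 windows and in 7.81% of all windows. Per gene, the shares were 8.97% of all genes and 10.68% of those tested genes. The TATA box letters TATAAA were found in the window of Cxcl3 alone among the 3 (positions -30 to -25) and in 13.62% of all windows. Their shares per gene were 15.67% of all genes and 16.37% of those tested genes. The 120-base stretches of Cxcl1 and Cxcl3 were 63.9% identical after alignment with gaps, those of Cxcl1 and Cxcl2 53.4%, and those of Cxcl2 and Cxcl3 52.0%.

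Levels are log2 normalized counts, in which a difference of 1 is a doubling. Total counts ran from 76784 in WT replicate 6 to 244561 in WT replicate 4, and 1 count was worth 1.94 and 0.636 linear units in these samples. As background, the genes removed by the study for low signal were used, without the 4 chemokines. Their median was lowest in WT replicate 4 (3.35) and highest in WT replicate 6 (4.54), with 3.98 in WT replicate 1 and 3.85 to 4.10 in the Atg5BECKO samples. WT replicates 4 and 6 thus stood at the ends of the background range. The differences of the 4 members are also given without each of them. The pair ratios and the fold changes of other genes are given with all 6 samples only. A member was called above background in a sample where it exceeded the 95th percentile of the low-signal genes there, which was 4.54 to 5.57 in WT and 4.90 to 5.40 in Atg5BECKO. All 9 defining endothelial markers, among them Pecam1 (CD31) and Cdh5 (VE-cadherin), were above that limit in all 6 samples, with Pecam1 at 12.47 to 12.85. The median log2 fold change of the 379 tested genes, Atg5BECKO over WT, was 0.24.

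Of the 3 members that passed the low-signal filter, Cxcl1 and Cxcl2 passed the study's thresholds toward Atg5BECKO (a log2 fold change of 0.7 or more in either direction, with an unadjusted limma p below 0.05), and Cxcl3 did not. Cxcl5 was under the filter. Cxcl2 exceeded the background limit in the Atg5BECKO samples only, so a filter on signal favours a difference there, and the count over the members is a description. The background for it is 10.8% of the 379 tested genes passing upward and 0.792% passing downward. After Benjamini-Hochberg adjustment over the 379 genes, 0 genes passed at 0.05 in limma, while 61 had an unadjusted p under 0.05, and voom on the recovered counts called 20, Cxcl1 among them (adjusted p = 0.0408). The groups of Cxcl1 and Cxcl2 did not overlap, with all Atg5BECKO samples above all WT samples, as was so for 25.6% of tested genes. No member had all Atg5BECKO samples below all WT samples, which 2.11% of tested genes had. The study's thresholds hold no adjustment for the number of genes, so "passed" refers to them below.

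**Figure D1:**
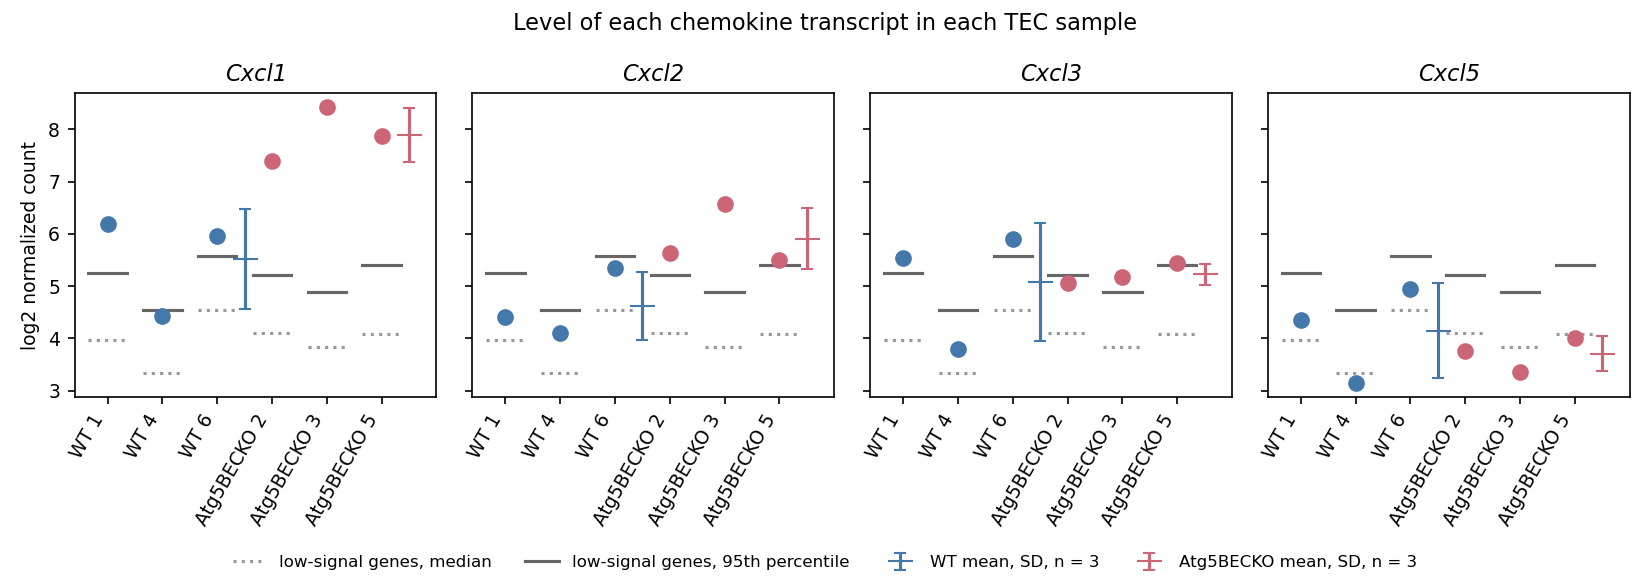
Log2 normalized counts of the 4 chemokine transcripts (vertical axis) in each of the 6 samples (horizontal axis), with group mean and SD (n = 3) beside the points. Horizontal lines give the median (dotted) and 95th percentile (solid) of the low-signal genes in the same sample. Cxcl1 and Cxcl2 were above the 95th percentile in all 3 Atg5BECKO samples, and Cxcl5 in none of the 6 samples.

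Cxcl1, also known as KC, is the mouse counterpart of the human GRO chemokines and one of the first neutrophil attractants made by activated endothelium. Its level was 6.19, 4.43 and 5.95 in WT replicates 1, 4 and 6, and 7.39, 8.42 and 7.87 in Atg5BECKO replicates 2, 3 and 5. Every Atg5BECKO sample lay above every WT sample, and the gap between the groups was 1.20. Behind these levels stood 79, 34 and 32 counts in WT and 186, 334 and 247 in Atg5BECKO. The highest WT count had an exact 95% Poisson interval of 62.5 to 98.5 and the lowest Atg5BECKO count one of 160.2 to 215, which cover counting error only. As a share of each sample's total, Cxcl1 made up 0.462, 0.139 and 0.417 per 1000 counts in WT and 0.990, 1.68 and 1.47 per 1000 in Atg5BECKO, so the separation was also present before any normalization beyond depth.

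The group means of Cxcl1 were 5.53 ± 0.95 in WT and 7.89 ± 0.52 in Atg5BECKO (SD, n = 3). The log2 fold change was 2.37 (SE 0.50, 95% interval 1.18 to 3.56), or 5.16-fold. limma gave p = 0.00226 and adjusted p = 0.129, and the exact permutation test over the samples gave p = 0.1, the smallest that 3 against 3 samples allow. Among the 379 tested genes Cxcl1 had rank 2 by log2 fold change and rank 4 by p. Against the background of the same sample, Cxcl1 stood 1.57 ± 0.58 above the median of the low-signal genes in WT and 3.88 ± 0.65 above it in Atg5BECKO (SD, n = 3). In WT it was above the 95th percentile of those genes in replicates 1 and 6 and not in replicate 4.

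The result for Cxcl1 passed the thresholds in 18 of 18 alternative processings, with log2 fold changes of 1.82 to 2.91. The lowest came without WT replicate 4 (1.82, limma adjusted p = 0.112) and the highest with background subtracted. Without WT replicate 6 it was 2.58. With each sample centred on its median, which moved the median of all genes from 0.24 to -0.14, it was 1.99. Its adjusted p ran from 0.0408, with voom on recovered counts, to 0.433, with no filter on low genes.

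Cxcl2, also known as MIP-2, binds the same receptor. Its level was 4.41, 4.10 and 5.35 in WT replicates 1, 4 and 6, and 5.63, 6.58 and 5.51 in Atg5BECKO replicates 2, 3 and 5. The groups were separated by 0.16, with Atg5BECKO replicate 3 well above the other samples and Atg5BECKO replicate 5 just above WT replicate 6. The counts were 23, 27 and 21 in WT and 55, 93 and 48 in Atg5BECKO. No WT sample was above the 95th percentile of its low-signal genes, whereas all 3 Atg5BECKO samples were. Cxcl2 lay 0.67 ± 0.20 above the median of those genes in WT and 1.89 ± 0.73 above it in Atg5BECKO (SD, n = 3). Its WT values were thus close to the floor of the assay.

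The group means of Cxcl2 were 4.62 ± 0.65 in WT and 5.91 ± 0.58 in Atg5BECKO (SD, n = 3). The log2 fold change was 1.29 (SE 0.41, 95% interval 0.30 to 2.27), or 2.44-fold between the measured values, with limma p = 0.0176, adjusted p = 0.177 and exact permutation p = 0.1. Since no WT sample exceeded its background limit, the WT level is only bounded from above. The Atg5BECKO mean was 1.73-fold above the mean of those WT limits (5.12), a difference of means without an interval. Atg5BECKO replicate 5 (5.51) lay below the limit of WT replicate 6 (5.57). Among the tested genes Cxcl2 had rank 14 by log2 fold change and rank 36 by p. With the background subtracted the log2 fold change was 2.26, without WT replicate 4 it was 1.03 and without WT replicate 6 it was 1.65. Cxcl2 passed in 14 of the 17 alternative processings that tested it. Its unadjusted p missed the threshold without Atg5BECKO replicate 3 (log2 fold change 0.95, limma adjusted p = 0.346), without WT replicate 1 (1.18, limma adjusted p = 0.390) and with the methods' t-test. After median centring the groups overlapped, since Atg5BECKO replicate 5 (5.26) then lay below WT replicate 6 (5.33), and the log2 fold change was 0.91 (limma adjusted p = 0.313), still past the thresholds.

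Cxcl3, the third GRO-type ligand of the cluster, shares its promoter run with Cxcl1 and Cxcl2. Its level was 5.53, 3.81 and 5.91 in WT replicates 1, 4 and 6, and 5.06, 5.17 and 5.45 in Atg5BECKO replicates 2, 3 and 5. All 3 Atg5BECKO samples thus lay between WT replicate 4 and the other WT samples. The counts were 50, 22 and 31 in WT and 37, 35 and 46 in Atg5BECKO. Cxcl3 was above the 95th percentile of the low-signal genes in WT replicates 1 and 6 and in Atg5BECKO replicates 3 and 5, and below it in WT replicate 4 and Atg5BECKO replicate 2.

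The group means of Cxcl3 were 5.08 ± 1.12 in WT and 5.23 ± 0.20 in Atg5BECKO (SD, n = 3). The log2 fold change was 0.14 (SE 0.52), with limma p = 0.792, adjusted p = 0.904 and exact permutation p = 1.0. Its 95% interval, -1.10 to 1.39, holds a change of the size of that of Cxcl2 and does not hold one of the size of that of Cxcl1. The sign depended on the processing. It was -0.49 without WT replicate 4 (limma adjusted p = 0.445), -0.24 after median centring, -0.29 after quantile normalization and -0.054 after scaling to total counts, and 0.56 without WT replicate 6.

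Cxcl5, also known as LIX, was not distinguishable from background in any sample. Its level was 4.35, 3.15 and 4.95 in WT replicates 1, 4 and 6, and 3.76, 3.36 and 4.01 in Atg5BECKO replicates 2, 3 and 5. The Atg5BECKO samples lay below WT replicates 1 and 6 and above WT replicate 4. The counts were 22, 14 and 16 in WT and 15, 10 and 17 in Atg5BECKO, and none of the 6 values exceeded the 95th percentile of the low-signal genes. The mean lay 0.20 above the median of those genes in WT and 0.30 below it in Atg5BECKO. The difference of the means was -0.44 (exact permutation p = 0.5), -0.94 without WT replicate 4 and -0.04 without WT replicate 6. At this depth no difference in Cxcl5 was detectable.

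The ratio of a pair of members within a sample does not depend on how that sample was scaled. The log2 ratio of Cxcl1 to Cxcl3 was 0.66, 0.63 and 0.05 in the WT samples and 2.33, 3.25 and 2.42 in the Atg5BECKO samples. The groups were apart by 1.67, and the means differed by 2.23. The log2 ratio of Cxcl1 to Cxcl2 was 1.78, 0.33 and 0.61 in WT and 1.76, 1.84 and 2.36 in Atg5BECKO. Here WT replicate 1 reached into the Atg5BECKO range, and the means differed by 1.08. The ratio of Cxcl2 to Cxcl3 also overlapped between the groups, with a difference of 1.14.

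Since Cxcl5 was at background in every sample, the ratios to it are plotted as a description and no difference is read from them. Likewise, the WT ratios with Cxcl2 rest on WT values of Cxcl2 at background. For the ratio of Cxcl1 to Cxcl3, both genes were under the background limit in WT replicate 4. Cxcl3 was also under it in Atg5BECKO replicate 2. A ratio is free of the scaling of its sample but not of background left in the counts. The exact permutation p was 0.1 for Cxcl1 to Cxcl3, the smallest that this design allows, and 0.2 for each of the pairs with overlap, or 0.15 and 0.2 after adjustment over the 6 pairs.

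**Figure D2:**
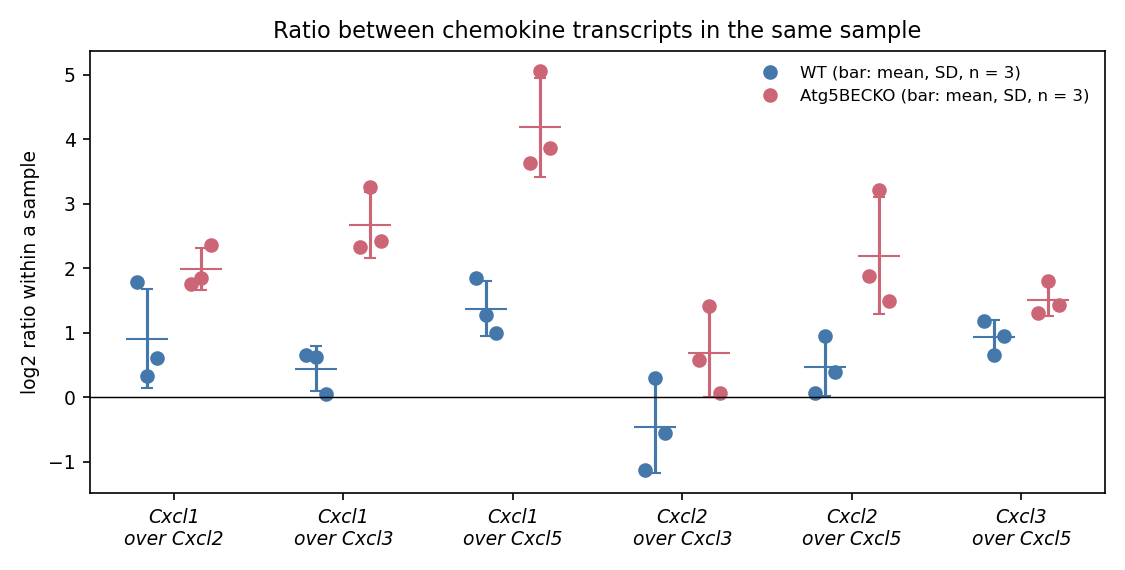
Log2 ratio between members within the same sample (vertical axis) for the 6 pairs (horizontal axis), with each sample as a point and the group mean and SD as bars (n = 3). The ratio of Cxcl1 to Cxcl3 was at most 0.66 in WT and at least 2.33 in Atg5BECKO, while the ratio of Cxcl1 to Cxcl2 overlapped between the groups. Cxcl5 was at background in all 6 samples, so ratios to it are a description only.

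The profile over the 6 samples was compared by the root mean square difference of log2 values, each gene centred on its own mean. This measure holds the difference between the groups, so whether a gene near a member passed follows in large part from the choice, and the fold changes of these genes are given as a description. Nearest to Cxcl1 were Egr1 (0.31), an immediate-early transcription factor, the cytokine Il6 (0.39), Atf3 (0.45), a stress-induced transcription factor, Tnfaip3 (0.46), which encodes the NF-κB feedback inhibitor A20, and Selp (0.55), the gene for P-selectin. Their log2 fold changes ran from 1.51 (SE 0.42) for Atf3 to 1.92 (SE 0.58) for Il6. In all 5, as in Cxcl1, WT replicate 4 was the lowest sample and the Atg5BECKO samples lay above the WT samples. Cxcl2 had place 9 in this order (0.72) and Cxcl3 place 142 (1.17), beside a median of 1.22 over the tested genes.

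Nearest to Cxcl2 were Nfkbia (0.26), which encodes the NF-κB inhibitor IκBα, the kinase gene Map3k8 (0.28), the endothelial lectin gene Clec14a (0.29), the interferon-inducible Ifi203 (0.29) and Icam1 (0.30). Their log2 fold changes ran from 0.73 (SE 0.39) for Clec14a to 1.53 (SE 0.40) for Icam1, with 1.16 (SE 0.33) for Nfkbia. Cxcl1 had place 163 in the order for Cxcl2 (0.72, beside a median of 0.75). The measure depends on the size of the change and on the order of the samples, and Cxcl1 and Cxcl2 differed in both. WT replicate 1 lay above WT replicate 6 for Cxcl1 (6.19 and 5.95) and below it for Cxcl2 (4.41 and 5.35). The parts of size and order in the distance were not separated.

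Nearest to Cxcl3 were Cxcr3 (0.17), a chemokine receptor gene of T cells, Bbc3 (0.17), which promotes apoptosis, Kir3dl2 (0.19), Tnfsf13 (0.19), the gene for the cytokine APRIL, and Klrg1 (0.19), a receptor gene of natural killer and T cells. Their log2 fold changes were 0.05 to 0.40. In these genes too WT replicate 4 was the lowest sample, and WT replicate 6 was the highest in all but Klrg1, where Atg5BECKO replicate 5 was at 5.78 and WT replicate 6 at 5.76. The centred profile of Cxcl3 differed from that of the median of the low-signal genes by 0.36 and that of Cxcl5 by 0.34, against 0.75 for Cxcl2 and 1.26 for Cxcl1.

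**Figure D3:**
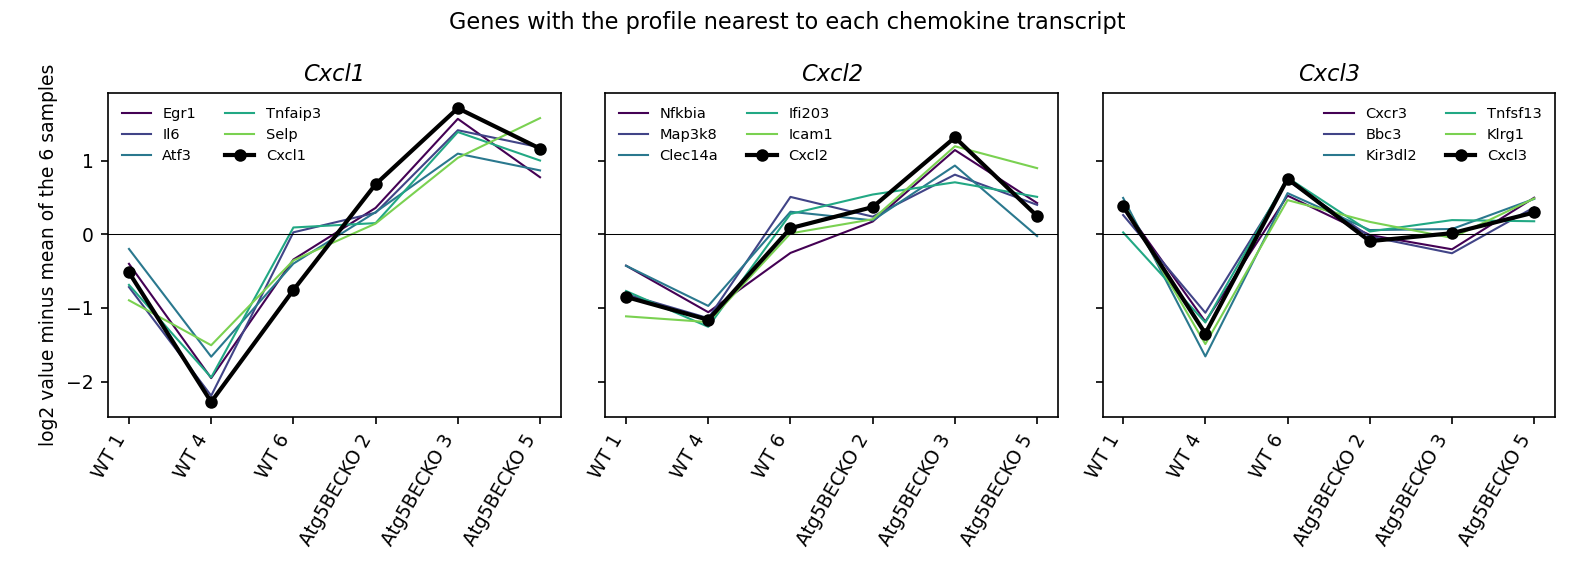
Log2 value minus the mean of the 6 samples (vertical axis) for Cxcl1, Cxcl2 and Cxcl3 (black) and the 5 tested genes nearest to each (colored), by sample (horizontal axis); lines only join the values of a gene. The profiles around Cxcl1 separate the groups, whereas those around Cxcl3 have WT replicate 4 lowest and do not separate the groups.

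The other ELR-type ligand of the panel, Cxcl15 (lungkine), was at 2.47 to 3.54 in WT and 3.43 to 3.83 in Atg5BECKO, with 6 to 17 counts, and never above the 95th percentile of the low-signal genes. Cxcr2, the receptor of these chemokines, was at 3.15 to 4.95 in WT and 4.21 to 4.98 in Atg5BECKO and likewise never above it. Both were under the low-signal filter and were not tested. The sorted cells thus held measurable transcript for some of the ligands, and none above background for the receptor.

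Of the 31 other chemokine ligands on the panel, 7 passed the low-signal filter and 1 passed the thresholds, beside a background of 10.8%. That ligand was Ccl21a, which attracts lymphocytes and dendritic cells through CCR7, with a log2 fold change of 2.08 (SE 0.46, limma adjusted p = 0.129). The median log2 fold change of the 7 was 0.69 and that of all tested genes 0.24. Cxcl9, a ligand of CXCR3 on T cells, had the same log2 fold change as Cxcl2, 1.29, with a larger SE of 0.62 and overlapping groups. Ccl2, which draws monocytes, had 0.72 (SE 0.32), Cx3cl1 (fractalkine) 0.69 (SE 0.34), Ccl4 0.43 (SE 0.39), Cxcl11 0.26 (SE 0.38) and Cxcl12, a homeostatic ligand, -0.27 (SE 0.33). None of these 6 passed. The ligands under the low-signal filter were not tested, and their differences ran from -0.58 to 0.92.

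**Figure D4:**
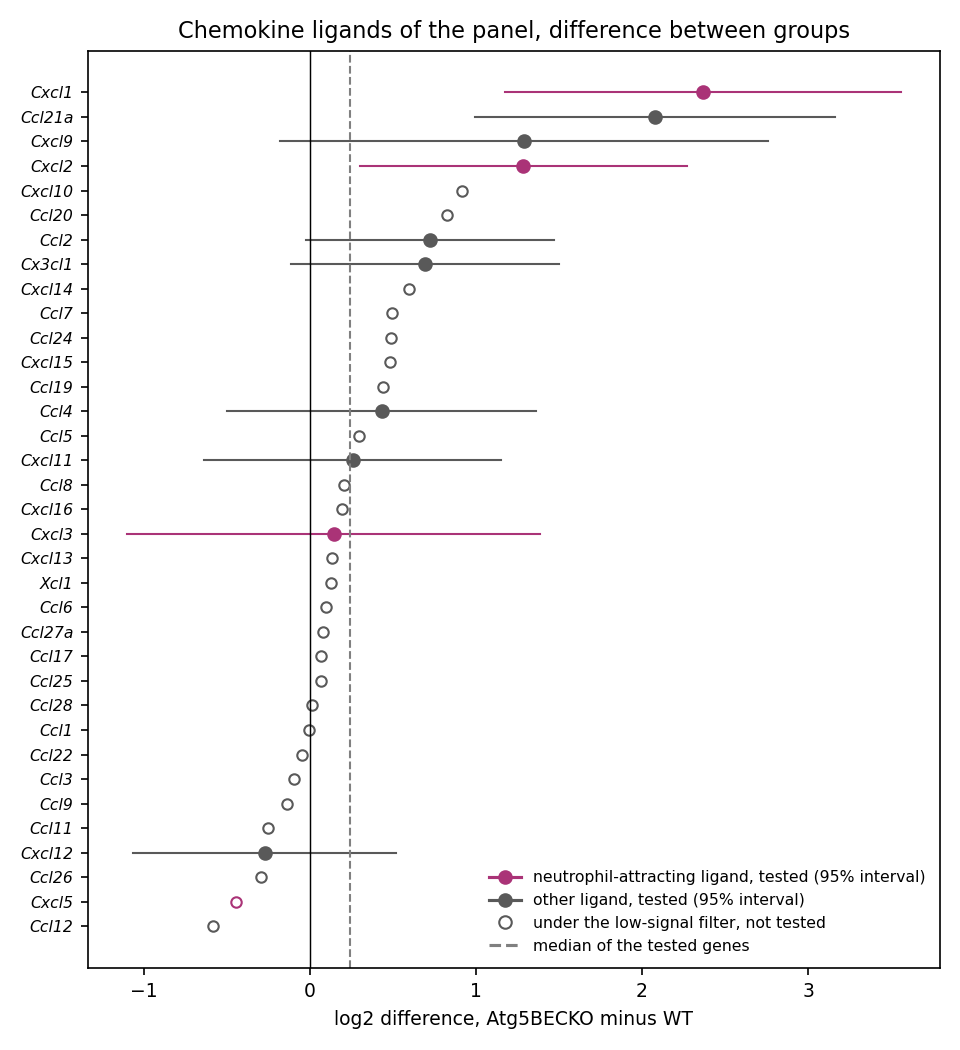
Log2 difference between the group means, Atg5BECKO minus WT (horizontal axis), for the 35 chemokine ligands of the panel (vertical axis); filled points with 95% intervals were tested, and open points were under the low-signal filter. Cxcl1 (2.37) and Ccl21a (2.08) lie farthest to the right, and Cxcl3 (0.14) lies below the median of the tested genes (0.24, dashed).

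Genes listed for the pathways that induce these chemokines were counted from lists chosen with earlier results of these data known. Each count stands beside the 10.8% of tested genes that passed upward. Of 8 cytokines listed as inducing, 2 were tested and Il6 passed (1.92, SE 0.58), while Il18 was at 0.43 (SE 0.59). The others were under the low-signal filter, so the list says little about inducers as a set. Whether Il6 acted upstream of the chemokines or rose along with them was not tested. Of 12 tested receptors and adaptors of the inducing pathways 1 passed, a share no higher than that background, and it was the adaptor Traf1 (0.97, SE 0.19). The receptor Tlr4, at 0.69 (SE 0.20), had a limma p of 0.0105 and missed the fold threshold. Of 11 tested NF-κB subunits and regulators 4 passed, all of them feedback or target genes, namely Nfkbia, Tnfaip3 (1.69, SE 0.55), Nfkbie (0.78, SE 0.21) and the survival gene Birc3 (0.80, SE 0.24). The subunit gene Relb, at 0.65 (SE 0.18, limma p of 0.00863), missed the fold threshold like Tlr4, with all Atg5BECKO samples above all WT samples. All 11 had a positive log2 fold change, as did 74.4% of tested genes, and their median was 0.65.

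Genes that act on the stability or feedback of such transcripts were measured too. Of 4 tested, the phosphatase gene Dusp2 passed (0.87, SE 0.36), and Dusp1 (0.61, SE 0.23), Dusp5 (0.64, SE 0.25) and the RNase gene Zc3h12a (0.79, SE 0.40) did not. Of 8 tested immediate-early genes, which respond within minutes to stimulation and to tissue handling, 3 passed (Atf3, Egr1 and Dusp2), with a median of 0.81. Their summed linear level was 4122 to 6326 in WT and 7802 to 13460.0 in Atg5BECKO. The ranges of the summed level thus did not overlap, nor did those of Cxcl1, although most single genes of the list did not pass. The part of the digestion and sort in the chemokine values was not tested.

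Of 8 genes for neutrophil adhesion and growth factors 6 were tested and 4 passed, beside 10.8% of tested genes. They were Sele (E-selectin, 2.77, SE 0.95), Selp (1.84, SE 0.44), Icam1 (1.53, SE 0.40) and Vcam1 (1.27, SE 0.44). All 4 encode molecules to which rolling or arrested leukocytes bind. Adjusted over all tested genes, limma gave these 4 adjusted p-values of 0.129 to 0.196. The groups overlapped for Sele. The growth factor gene Csf3, named here after its value was seen, was under the low-signal filter and was not tested. Its mean was 2.22 ± 1.63 in WT and 4.85 ± 0.71 in Atg5BECKO (SD, n = 3), a difference of 2.64. The Atg5BECKO mean lay below the lowest background limit of that group (4.90).

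Markers of other cells were measured beside the endothelial ones. The neutrophil markers were low. Of the 9 neutrophil markers 4 were tested and none passed, with a median log2 fold change of 0.15. Their summed linear level was 111 to 323 in WT and 203 to 293 in Atg5BECKO, and no marker was at 0, as the counts hold background. Of the 6 defining ones, Ly6g, S100a8, S100a9, Csf3r and Cxcr2 were above the 95th percentile of the low-signal genes in no sample, and Fpr1 in 3 of 6. Since CD45+ cells had been depleted, neutrophils themselves were not the cells studied, and these data hold no count of them.

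Of 13 macrophage and monocyte markers 3 were tested and Cd14 passed (0.97, SE 0.27), while Csf1r was at -0.04 (SE 0.34). Csf1r was above the background limit in all 6 samples, at 5.92 to 7.20 in WT, and C1qb in 5 of 6. Cd14 was above it in 1 WT and 3 Atg5BECKO samples. Of the untested defining ones, Itgam was above it in 2 samples, Cd68 in 1, and Adgre1 and C1qa in 0. The 13 markers had a summed linear level of 232 to 600.1 in WT and 381 to 457 in Atg5BECKO, within the WT range. Of 12 pan-leukocyte and lymphocyte markers 2 were tested and none passed, with a summed linear level of 107 to 269 in WT and 184 to 259 in Atg5BECKO. The defining pan-leukocyte marker Ptprc (CD45) was under the low-signal filter. It was at 3.35 to 5.56 in WT and 4.99 to 5.66 in Atg5BECKO, above the background limit in 1 WT and 2 Atg5BECKO samples. Fibroblast and mural markers moved the other way. Of 10, 3 were tested and all 3 passed downward, namely Col6a3 (-1.54, SE 0.50), Olfml2b (-1.39, SE 0.37) and Thy1 (-1.10, SE 0.34), beside 0.792% of tested genes, and their summed linear level was 354 to 850.3 in WT and 236 to 349.7 in Atg5BECKO. Thy1 and Col6a3 were above the background limit in all 6 samples, at up to 7.57 and 7.81 in WT. The melanoma marker Mlana was at -0.07 (SE 0.39), and the summed melanocyte markers ranged from 36.9 to 85.1 in WT and from 32.9 to 53.2 in Atg5BECKO. The part of cells other than endothelium in the chemokine values was not tested. In such sorted bulk samples, fewer cells of a type and less RNA per cell cannot be told apart.

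The 12 tested endothelial markers had a median log2 fold change of 0.09 and none passed, with a mean level of 10.65 ± 0.01 in WT and 10.75 ± 0.16 in Atg5BECKO (SD, n = 3). When each sample was scaled to them, the log2 fold changes were 2.27 (SE 0.50) for Cxcl1, 1.19 (SE 0.38) for Cxcl2 and 0.05 (SE 0.54) for Cxcl3. Scaled to endothelial content, the order of the 3 was thus as with the deposited values.

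**Figure D5:**
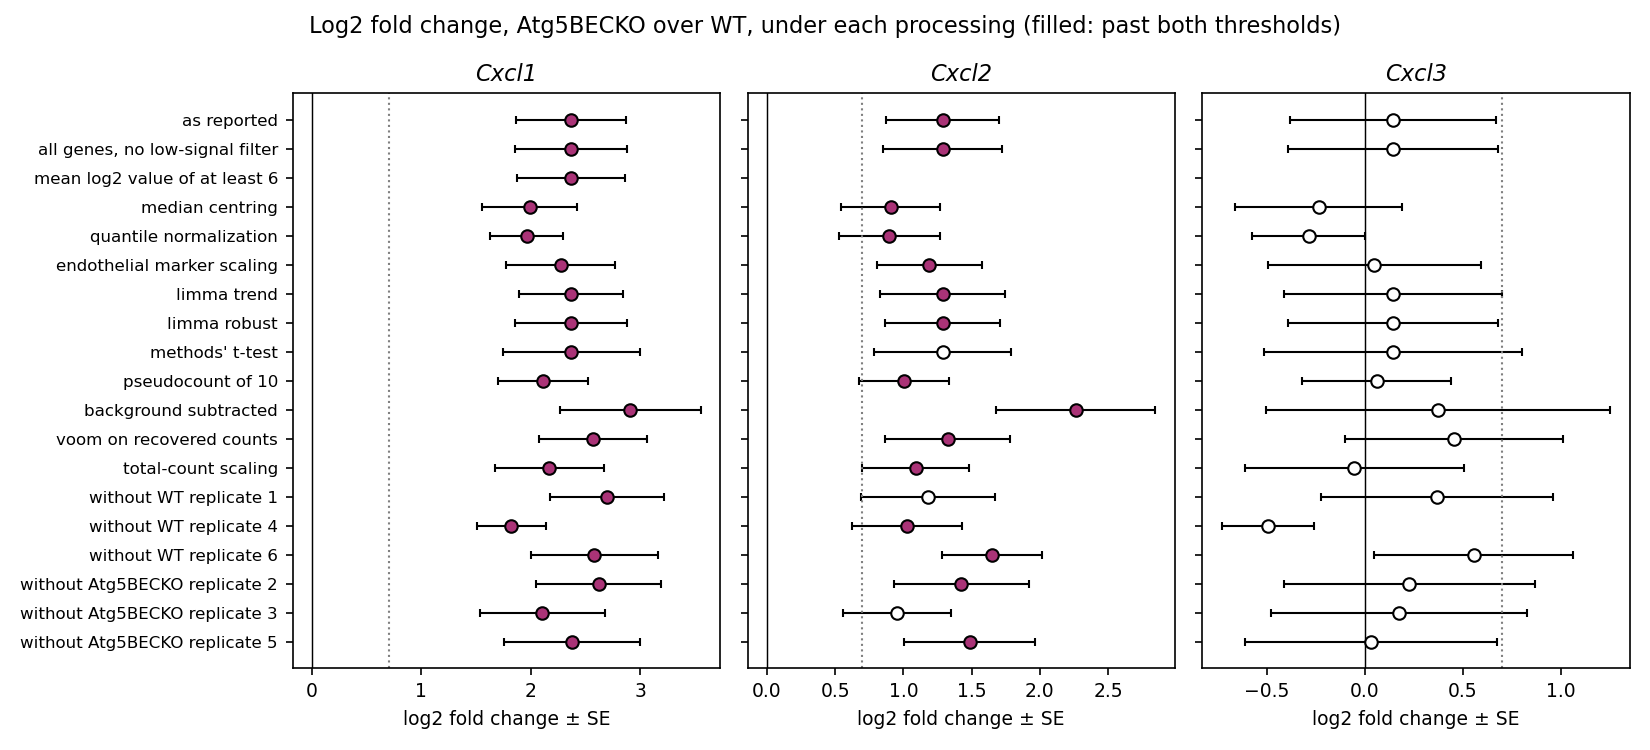
Log2 fold change, Atg5BECKO over WT, with its SE (horizontal axis) for Cxcl1, Cxcl2 and Cxcl3 under each processing (vertical axis); filled points passed both thresholds, and the dotted line marks the fold threshold of 0.7. Cxcl1 passed throughout (1.82 to 2.91), Cxcl2 in all but 3, and Cxcl3 lay on both sides of 0; an empty place means that the gene was not tested there.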

How the data were processed

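NanoString counts of sorted TECs were analysed for 3 WT and 3 Atg5BECKO samples, grouped by title. The authors deposited log2 normalized counts. Their nSolver normalization scaled every sample by a single factor, based on 16 housekeeping genes out of 20, and left the background in. The gene content does not look like that of the panel named in the methods, so the panel is uncertain. Steps between low values gave back whole counts (100% of values whole within 0.01). limma 3.58.1 in R 4.3.3 (lmFit, eBayes) was fitted to the 379 genes of the study's comparison table, the other 371 having been removed for low signal, with Benjamini-Hochberg adjustment. Columns of the authors' fold changes and p-values were not used. Exact tests were two-sided permutations over samples. Cxcl5 was described by its values. Pair ratios were adjusted over 6 pairs. Promoters were from RefSeq (GRCm38.p6).

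The members and lists were chosen with earlier results of these data known. Named genes are the members, Cxcl15, Cxcr2, up to 4 tested genes of each list by p, the defining markers, and the 5 genes nearest in profile to each tested member. Il16 and Csf3 were named after their values were seen. Alternatives were filters, scalings, limma settings, the methods' t-test, a pseudocount of 10, background subtraction, voom and leaving out each sample; scaling to total counts was added after seeing the data. The fit was tested on simulated data. Figures were drawn with matplotlib 3.10.9.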

Additional observations from a re-analysis of the deposited data

How the results depend on the processing

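Cxcl1 kept its direction and passed the thresholds in all 18 alternatives, with a range of 1.82 to 2.70 when 1 sample was left out. Cxcl2 kept its direction in all 17 that tested it, with a range of 0.95 to 1.65 when 1 sample was left out, and did not pass with the methods' t-test (1.29), without WT replicate 1 or without Atg5BECKO replicate 3. Cxcl3 turned sign after median centring (-0.24), quantile normalization (-0.29), total-count scaling (-0.054) and without WT replicate 4, with a leave-one-out range of -0.49 to 0.56. The difference of Cxcl5 was -1.72 with background subtracted, where all Atg5BECKO samples and WT replicate 4 sat at the floor, and -0.94 to -0.04 when 1 sample was left out. The members past the thresholds fell from 2 to 1 with a mean log2 value of at least 6, which left Cxcl2 untested, and with the methods' t-test, and numbered 1 to 2 when 1 sample was left out. Of all tested genes, 41 passed upward, against 17 after median centring, 21 after quantile normalization and 21 after total-count scaling, and 30 to 58 without 1 sample. Downward, 3 passed, against 5 with no filter, 13 after median centring, 9 after quantile normalization and 1 with the methods' t-test, and 3 to 4 without 1 sample. At an adjusted p under 0.05, limma called 0 genes, against 1 with background subtracted, 20 with voom and 18 without WT replicate 6, the range without 1 sample being 0 to 18. The causes were not tested.

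No paired analysis was made because the labels name no litter or pair, and the replicate numbers only number the samples. With 10 to 50 counts for Cxcl3 and Cxcl5 per sample, close to the low-signal genes, small changes were not measurable here, and 3 samples per group limit every test.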
